A study of Mus musculus with 9 samples.

Results

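In mouse granulosa cells, 258 regions near the ends of protein-coding genes carried a peak of the glucocorticoid receptor (GR) 6 h after an ovulatory dose of hormone and no called peak before it. They were selected on the peak calls themselves. Overlapping peaks (by at least 1 bp) of 4 GR libraries on chromosomes 1 to 19 and X formed 18570 loci. A locus was kept if both 6 h libraries and neither 0 h library had a peak in it and if it lay at most 1 kb from the start or end of a protein-coding gene. Of all loci, 2805 (15.1%) were called only at 6 h. Of the 8736 loci near a gene end, the 258 make up 2.95%, and they are 9.20% of the loci called only at 6 h. Since the rule used the calls, the presence of these peaks at 6 h and their absence at 0 h are no finding, and the strength of the peaks is given below as a description. Their chromatin mark at 0 h, their side of the gene and the sequence of the promoters they cover were not used by the rule.

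The series mapped GR on chromatin by ChIP-seq, in which DNA bound by an antibody's target is sequenced. All mice behind the values below were 21 days old, wild type and of the CBA x C57BL/6 F1 cross, and all had received 5 IU of eCG, a gonadotropin that makes follicles grow. At 44 h after eCG the mice of the 0 h group were killed, and those of the 6 h group received 5 IU of hCG, which stimulates the receptor of luteinising hormone (LH) and so imitates its surge, and were collected after 6 h. Granulosa cells were released by puncturing the ovaries. GR was mapped in 2 libraries at each time, and H3K27ac, the acetylated form of histone H3 found at active regulatory regions, in 1 library at 0 h. The other 4 of the 9 samples were not analysed here. No group was held for 6 h more without hCG, so hCG and the later time cannot be told apart. The labels number the replicates without saying whether they came from separate animals, so their spread may be technical.

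GR is a steroid receptor that sits in the cytoplasm until it binds cortisol or corticosterone, then enters the nucleus and binds DNA, either at paired half-sites of its own element or next to other transcription factors such as AP-1. In many tissues it favours chromatin that is already open, and most of its sites lie away from promoters. In the follicle, LH starts the programme of ovulation in granulosa cells, in which genes of the cumulus matrix, prostaglandin synthesis and early transcription factors are switched on, and the cells turn to steroid synthesis.

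The label of the cells was set against H3K27ac at marker genes. All 11 granulosa markers held an H3K27ac peak inside the gene or within 1 kb of it, as did 15 of 15 housekeeping genes, against 3 of 10 theca, 2 of 11 oocyte, 4 of 12 leukocyte and 3 of 11 endothelial markers. The markers at which no peak was called included Insl3 of theca cells, Zp3 of the oocyte, Ptprc of leukocytes and Tek of endothelial cells. Those that held a peak were Cyp17a1, Ptch1 and Nr2f2 of theca cells and Gdf9 and Dazl of the oocyte. They were also Cd68, Itgam, Fcer1g and Spi1 of leukocytes and Pecam1, Cdh5 and Vwf of endothelial cells. On the chromosomes used, there were 10115 and 9724 GR peaks in the 0 h lists, and 14732 and 10587 in those of 6 h. The weakest peak of each list had a −log10 p-value of 9.0 to 9.10, so a locus missing from a list had only not passed that limit. Read depth is unknown.

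The promoters of 6 genes show where GR was called at 6 h on the sequence. RefSeq gives a promoter window of 250 bases before and 50 after each transcription start, and the members overlapped 99 such windows of 86 genes. At 27 genes both 6 h summits lay in the window. From the 8 strongest of these, 5 are shown for their well-known roles, and Ptgs2 was added after its values were seen, as the prostaglandin gene of ovulation. Each line holds the 250 bases before the start, 5′ to 3′ on the strand of the gene, in build GRCm38.p6 (the coordinates are those of mm10). Capitals mark matches to short sequences known from transcription factors, on either strand, so a match on the other strand is printed as its reverse complement. The GR half-site was searched as AGAACA. Sites of AP-1, the dimer of Fos and Jun proteins, were searched as TGANTCA, and those of RUNX factors as TGTGGT. C/EBP sites were searched as TTGCNNAA, and the half-site of the cAMP response element (CRE) as TGACG. The GC box of Sp1 was searched as GGGCGG. The CCAAT box and the TATA box (searched as TATAAA) are general promoter elements.

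Tnfaip6: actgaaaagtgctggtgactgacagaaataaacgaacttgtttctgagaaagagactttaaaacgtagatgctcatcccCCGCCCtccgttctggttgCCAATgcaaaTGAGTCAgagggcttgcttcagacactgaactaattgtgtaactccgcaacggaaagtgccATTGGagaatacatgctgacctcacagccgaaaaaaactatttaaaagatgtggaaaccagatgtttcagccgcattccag
Ptgs2: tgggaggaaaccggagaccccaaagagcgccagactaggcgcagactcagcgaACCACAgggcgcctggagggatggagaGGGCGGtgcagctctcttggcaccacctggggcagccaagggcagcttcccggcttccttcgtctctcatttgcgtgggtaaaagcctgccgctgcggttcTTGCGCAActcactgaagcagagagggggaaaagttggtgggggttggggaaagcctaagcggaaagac
Runx2: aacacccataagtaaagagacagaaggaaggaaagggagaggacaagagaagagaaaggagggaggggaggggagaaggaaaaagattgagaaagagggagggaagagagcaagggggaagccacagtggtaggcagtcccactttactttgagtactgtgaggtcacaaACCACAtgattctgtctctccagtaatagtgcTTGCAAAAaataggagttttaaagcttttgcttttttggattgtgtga
Nr4a2: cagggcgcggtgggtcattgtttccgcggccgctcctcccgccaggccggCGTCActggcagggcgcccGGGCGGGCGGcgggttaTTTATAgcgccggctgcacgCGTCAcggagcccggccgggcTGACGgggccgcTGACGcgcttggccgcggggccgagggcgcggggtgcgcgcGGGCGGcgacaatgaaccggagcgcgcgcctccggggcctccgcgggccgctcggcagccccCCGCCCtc
Pfkp: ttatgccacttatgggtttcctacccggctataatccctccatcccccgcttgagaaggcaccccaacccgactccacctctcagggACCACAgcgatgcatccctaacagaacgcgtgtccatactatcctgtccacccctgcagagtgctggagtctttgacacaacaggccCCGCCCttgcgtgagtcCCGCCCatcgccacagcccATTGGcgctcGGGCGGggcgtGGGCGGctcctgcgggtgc
Glrx: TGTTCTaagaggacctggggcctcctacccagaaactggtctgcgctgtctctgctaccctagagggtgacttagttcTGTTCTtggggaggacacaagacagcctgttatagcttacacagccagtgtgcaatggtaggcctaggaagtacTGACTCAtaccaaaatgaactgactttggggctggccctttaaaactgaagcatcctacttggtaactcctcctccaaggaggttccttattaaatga

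The Tnfaip6 window (chr2:52037863-52038112, plus strand) has an AP-1 match whose leftmost base lies 142 bases before the start, at -142, between CCAAT matches at -152 and -81, and its summits lay at -21 and -22. Tnfaip6 encodes a protein that helps to cross-link hyaluronan in the cumulus matrix. The Ptgs2 window (chr1:150099781-150100030, plus strand) has a C/EBP match at -69 and a RUNX match at -197, and its summits lay 41 and 16 bases after the start. Ptgs2 is the inducible cyclooxygenase, the enzyme that commits arachidonic acid to prostaglandins. In the Runx2 window (chr17:44814628-44814877, minus strand), a RUNX match at -80 and a C/EBP match at -48 flank the summit of the first 6 h library, at -51, and that of the second was 29 bases after the start. Runx2 encodes a RUNX transcription factor that is induced in the ovulating follicle. In the window of the orphan nuclear receptor gene Nr4a2 (chr2:57124004-57124253, minus strand), 4 CRE half-sites lie between -200 and -111, and 80.0% of the bases are G or C. Its summits were farther upstream, at -225 and -250. The Pfkp window (chr13:6648772-6649021, minus strand), of a phosphofructokinase gene of glycolysis, has 4 GC boxes between -76 and -19. The Glrx window (chr13:75839635-75839884, plus strand), of the redox enzyme glutaredoxin, has GR half-sites at -250 and -172 and an AP-1 match at -98.

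Short sequences of this kind are common, so their share in the 99 windows was set beside that in all 21020 promoter windows of the same length. The half-site AGAACA was in 15.2% of the member windows (95% Wilson interval 9.40 to 23.5) and in 16.3% of all. At loci in all 4 libraries and only at 0 h it was in 9.93% and 13.0% of the windows. The full GR element is a pair of half-sites facing each other across a short gap of fixed length, in which any base may stand. It was in none of the 99 windows and in 2 of all. A looser form of it, whose letters are not given here, was again in none of the 99 and in 0.447% of all. With 99 windows, a share of up to 3.74% would still be within the interval. AP-1 was in 11.1% of the member windows (6.32 to 18.8), an interval that includes the 7.04% of all windows, and in 3.83% of the windows at loci called in all 4 libraries and 2.82% of those at loci called only at 0 h. The GC box was in 65.7% against 46.6% of all, and in 72.9% and 65.5% of the windows at loci in all 4 libraries and only at 0 h. The median share of G and C was 62% against 56.7% of all, and 63.3% and 60.7% in these classes. The ETS sequence CCGGAAG was in 15.2%, near the 11.7% of all windows, and in 23.9% and 28.2% of the windows at loci in all 4 libraries and only at 0 h. A TATA box was in 5.05% against 12.7% of all, and in 6.57% and 3.95% of the windows of these classes. The GATA sequence AGATAA was in 4.04% (1.58 to 9.93), an interval that includes the 9.69% of all windows. It was in 4.4% and 4.52% of the windows of these classes. The other sequences searched also had shares in the member windows whose intervals include the share of all windows. These were the CRE half-site (29.3% against 23.8%), the whole CRE, TGACGTCA, which contains it (2.02% against 2.26%), and RUNX (14.1% against 14.7%). They were also C/EBP (11.1% against 10.3%), the CCAAT box (36.4% against 38.5%), the E-box CACGTG (9.09% against 7.91%) and AAGGTCA, bound by SF-1 and LRH-1 (6.06% against 4.06%). At loci in all 4 libraries the CRE half-site was in 40.7% of the windows, above the members' interval of 21.2 to 38.9. AAGGTCA was in 2.50% of them, below the members' interval of 2.81 to 12.6. At loci only at 0 h the shares were 30.5% and 2.82%. These shares are descriptions of the letters, windows of the same gene overlap, and no difference between them was tested.

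The members differed from the GR loci of other classes in the chromatin they lay in at 0 h. Of the 258, 179 (69.4%, 95% Wilson interval 63.5 to 74.7) overlapped an H3K27ac peak of 0 h. This was less often than at near-end loci called in all 4 libraries, of which 3806 of 3840 (99.1%) did, and than at near-end loci called only at 0 h, of which 228 of 245 (93.1%) did. It was more often than at the loci called only at 6 h elsewhere, with 924 of 2547 (36.3%). The mark was at 37.1% of these elsewhere loci that lay inside genes and at 35.1% of those outside. The differences were -29.7, -23.7 and 33.1 percentage points, and each passed Fisher's exact test (two-sided, Benjamini-Hochberg adjusted over 6 tests, p = 4.8e-72, 8.2e-12 and 3.5e-24). Loci are not replicates, and the mark came from 1 library, so these tests compare sets of loci in the libraries at hand. Without the first 0 h library, the differences from loci in all 4 libraries and from loci only at 0 h were -16.4 and -8.21 points, and without the second 6 h library -19.3 and -13.9. They were -21.1 and -11.9 without the second 0 h library and -13.6 and -12.6 with the stronger 50% of each GR list, and all of these passed. Loci in all 4 libraries were wider than the members, with a median of 723 against 412.5 bp, and asking for the mark at the middle of the locus left 60.1% of the members, 93.2% of the loci in all 4 libraries and 83.3% of those only at 0 h.

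**Figure D1:**
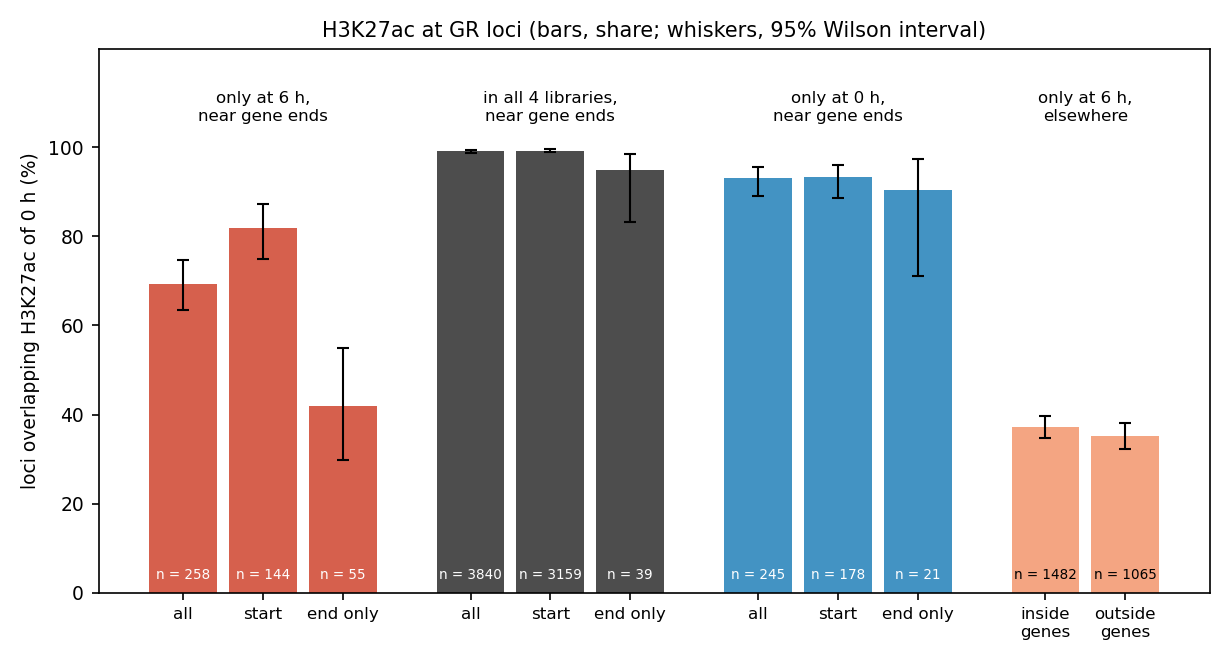
Share of GR loci that overlap an H3K27ac peak of 0 h (vertical axis, percent), for loci near gene ends by the libraries that called them and by side of the gene, and for loci only at 6 h elsewhere. Whiskers are 95% Wilson intervals and n counts loci. Members at a gene start (81.9%) and at a gene end only (41.8%) stand apart, and in the other near-end classes both sides are above 90%.

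The side of the gene parted the members further. RefSeq's promoter table gives the strand of 17274 of the 21631 protein-coding genes used, which placed 199 members. Of these, 144 (72.4%) lay within 1 kb of the 5′ end of an annotated gene, called a start here, and 55 within 1 kb of a 3′ end and of no start, and for 59 the strand is not given. The 5′ end of a gene in the gene table is not always a transcription start of the promoter table. Such a start lay within 1 kb of 135 of the 144 members, and farther away at 9, of which 7 had the mark. Of the near-end loci in all 4 libraries with a known strand, 3159 of 3198 (98.8%) lay at a start. The difference was -26.4 percentage points (Fisher's exact adjusted p = 1.6e-45). Of the near-end loci only at 0 h with a known strand, 178 of 199 (89.4%) did, a difference of -17.1 points (Fisher's exact adjusted p = 2e-05). Without the second 6 h library, where 1 library alone stands for 6 h, the latter difference was -3.05 points, which missed the threshold (Fisher's exact test, adjusted p = 0.26), and the former was -11.9 points. H3K27ac covered 118 of 144 members at a start (81.9%, 74.9 to 87.4) and 23 of 55 at an end only (41.8%, 29.7 to 55.0), a difference of 40.1 points (Fisher's exact adjusted p = 9.3e-08). With transcription starts of the promoter table alone counted as starts, an alternative chosen after seeing the data, the differences were -27.7, -17.9 and 40.5 points, and each passed. Of the 59 members without strand, 64.4% had the mark. Among loci at starts the share was 99.3% in all 4 libraries and 93.3% for those only at 0 h, both above the interval of the members, and this difference within starts was not tested. Loci at an end only had the mark in 94.9% of 39 cases in all 4 libraries and 90.5% of 21 only at 0 h. For members at an end only, the interval of 29.7 to 55.0 includes the 36.3% of the loci only at 6 h elsewhere. That difference was not tested.

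The summits of members at starts were spread wider around the start, a description for which no test was run. The mean of the 2 summits lay a median of 199 bp from the nearest start of the promoter table, against 88 bp for loci in all 4 libraries and 98 bp for loci only at 0 h. Within 100 bp of a start lay 28.5% of the members, 56.4% of the loci in all 4 libraries and 52.2% of those only at 0 h. More than 500 bp away lay 36.1%, 5.41% and 11.8%. The last share is 52 of the 144 members, which include the 9 with no transcription start of the promoter table within 1 kb.

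**Figure D2:**
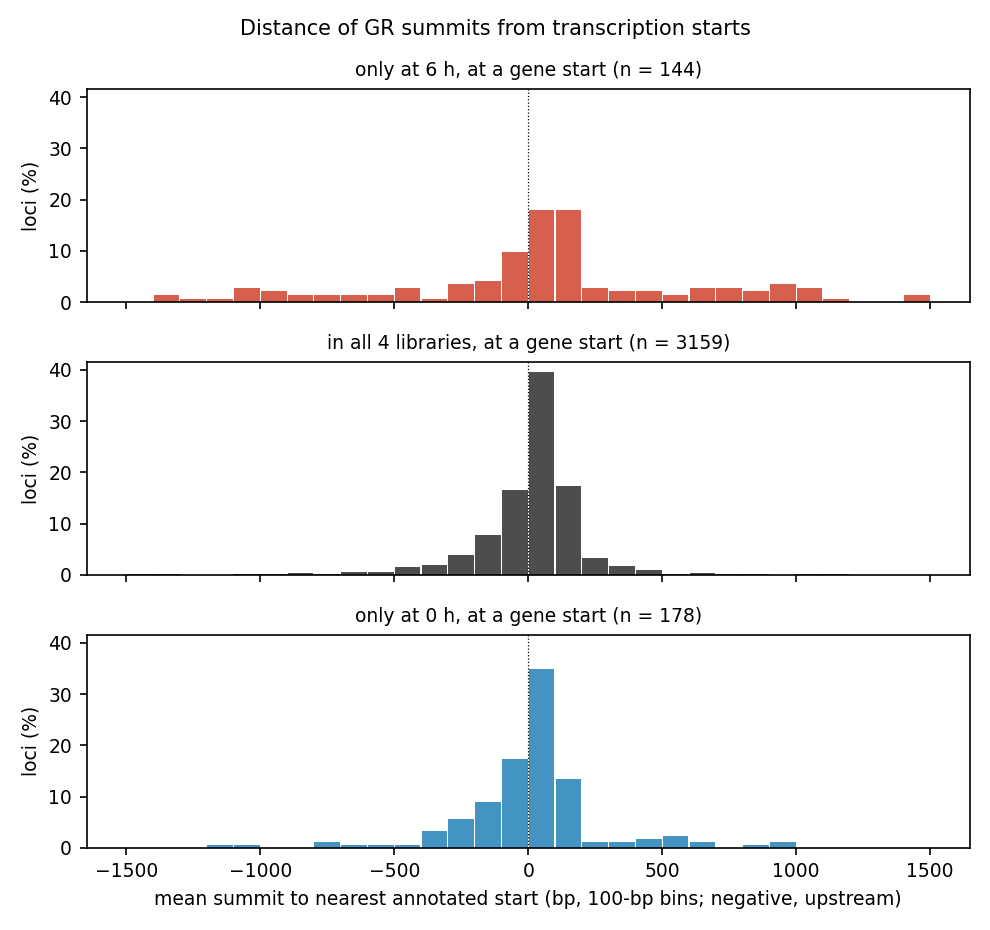
Position of GR summits relative to the nearest annotated transcription start (horizontal axis, bp in bins of 100 bp, negative values upstream) for loci at gene starts, as a percent of the loci of each class (vertical axis). The 144 members show a peak just after the start as the other classes do, with broader flanks on both sides. Outside the range plotted lie 8 of the members, 42 of the loci in all 4 libraries and 6 of those only at 0 h.

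Some members lay beside GR loci that were present at both times. A locus called in all 4 libraries lay within 1 kb of 38 members (14.7%), within 500 bp of 29 and within 10 kb of 78, and the median distance was 36864.5 bp. Ddit4, whose product restrains the growth kinase mTOR, is such a case. Its member (5.49-fold and 4.26-fold in the 6 h libraries) lay 126 bp from a locus in all 4 libraries, which had 16.3-fold and 14.5-fold at 0 h and 20.5-fold and 11.2-fold at 6 h. When peaks up to 500 bp apart were joined, 208 of the 258 remained loci only at 6 h near a gene end. Of the 286 genes with a member, 79 (27.6%) also had a locus in all 4 libraries within 1 kb of an end, against 20.7% of all protein-coding genes. Of the same 286 genes, 3 had a locus only at 0 h there, a share near the 1.29% (279 of 21631) of all protein-coding genes. Other loci only at 6 h lay within 50 kb of 98 members, 1 of them at 61 members and 2 or more at 37, up to 11 at Ephx2.

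The peaks of the members were weak to moderate for their libraries. Fold enrichment, the authors' ratio of a peak over the background estimated by the peak caller, had a median of 7.60 (range 4.0 to 27.6) in the first 6 h library and 6.42 (3.21 to 25.2) in the second. The loci only at 6 h elsewhere had medians of 9.12 and 8.56, and the near-end loci in all 4 libraries 9.73 and 6.71. By the authors' p-value the median member stood at 58.7% of the way down the first list and 67.8% down the second, where 0 is the strongest peak, against 41.8% and 30.7% for the loci elsewhere. Both libraries gave 10-fold or more at 29 members and 20-fold or more at 2, and both gave less than 10-fold at 198. Across the 258 members, Pearson's r of the log2 fold enrichments was 0.77 and Spearman's rho 0.67, on points that share the same pair of libraries and the same threshold. The first library gave the higher value at 194 members and the second at 64. The summits were a median of 53.5 bp apart and within 100 bp at 181 members (70.2%). Of the 86 members of best rank, 57.1% of those with strand lay at a start, of the 86 in the middle 77.1% and of the 86 of lowest rank 81.8%. The mark covered 66.3%, 68.6% and 73.3% of them. Within each side the order was not the same. At starts it covered 91.7% of those of best rank, 75.9% and 81.5%, and at ends only 51.9%, 37.5% and 25%.

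**Figure D3:**
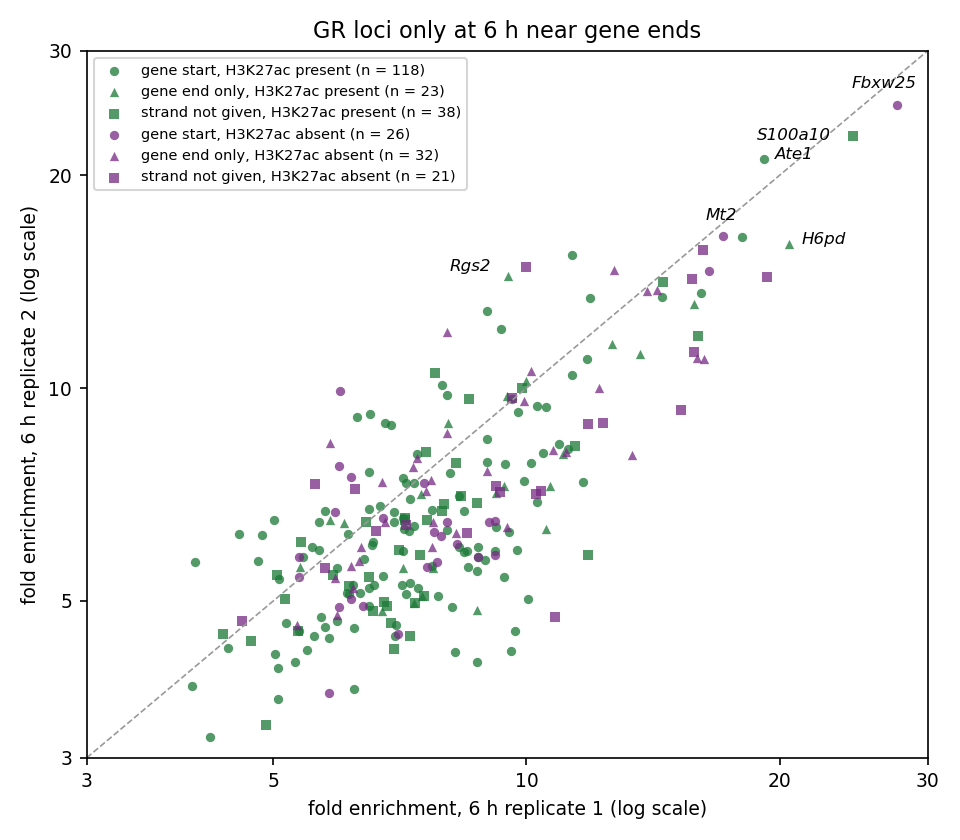
Fold enrichment of the 258 members in the first (horizontal) and second (vertical) 6 h library, both on log scales, with shape for the side of the gene and colour for H3K27ac at 0 h. The dashed line marks equal values. Most points lie below 10 in both libraries, and the strongest, Fbxw25 at 27.6 and 25.2, lies at a start outside the mark.

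The 12 members with the best mean rank lay at genes of varied function, 6 at a start, 3 at an end and 3 at genes whose strand is not given, and 6 had the mark. The best rank was at the end of H6pd (chr4:149979295-149980230), 20.5-fold in the first 6 h library and 16.0-fold in the second, in an H3K27ac peak of 1979 bp. H6pd makes NADPH in the endoplasmic reticulum for the enzyme that regenerates active glucocorticoid there. A second member covered the 5′ end of H6pd in the gene table, with 9.20-fold and 6.36-fold, also in the mark. Its summits lay at -5756 and -5718 bp from the nearest start of the promoter table, which is of H6pd. Both libraries gave the locus at the 3′ end the higher value.

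The largest fold enrichments were at Fbxw25, an F-box gene (chr9:109665478-109666101), with 27.6-fold and 25.2-fold. The locus lay 131 bp from the annotated gene and 166427 bp from the nearest H3K27ac peak. Fbxw25 has very similar genes beside it, and the sources used here do not say how reads that match several copies were placed. S100a10, the gene of the partner of annexin A2, followed with 24.4-fold and 22.7-fold in the mark, 172 bp from a locus called in all 4 libraries. Ate1, which encodes an arginyltransferase, had 19.2-fold and 21.1-fold in the mark, 349 bp from the 5′ end of the gene and 625 bp from a locus called in all 4 libraries. These 3 and H6pd, Mt2, Dpep2 and Capn8 are the only members of the 12 with 15-fold or more in both libraries.

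Mt2, a metallothionein gene that binds metals and is a long-known target of glucocorticoids, had 17.1-fold and 16.4-fold at a locus 681 bp before its start (chr8:94171228-94171937). The mark was 288 bp away. At the start itself a separate GR locus was called in the first 0 h library (6.87-fold) and in both 6 h libraries (15.3-fold and 9.12-fold), so Mt2 carried GR within 1 kb in 3 of 4 libraries and the upstream locus is lost when peaks up to 500 bp apart are joined. The others of the 12 were the dipeptidase gene Dpep2 (16.2-fold and 15.7-fold), Trhr2, a receptor gene for thyrotropin-releasing hormone (19.3-fold and 14.3-fold), the calpain gene Capn8 (18-fold and 16.4-fold), and Egln2, which encodes an oxygen-sensing prolyl hydroxylase and adjoins Rab4b (14.5-fold and 13.4-fold). Tnfaip6 (16.5-fold and 14.6-fold), the ubiquitin-conjugating enzyme gene Ube2n (14.3-fold and 13.8-fold) and the glypican gene Gpc3 (15.8-fold and 13.1-fold) completed them. Of these, Capn8, Egln2 and Gpc3 had the mark. The Egln2 locus lay 132 bp from a locus called in all 4 libraries. Like that of S100a10, it is also lost when peaks up to 500 bp apart are joined. At the other edge of the set, the lowest ranks were at Rab12, a small GTPase gene (5.67-fold and 5.91-fold), Ddit4, and the start of Clic1, an intracellular chloride channel gene (4.0-fold and 3.80-fold).

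The window of 1 kb also has members close to its limit. Just inside it lay Ecm1, an extracellular matrix gene (994 bp, 9.98-fold and 10.2-fold), and the strong Dpep2 locus (999 bp). Just outside lay loci near Msmo1, an enzyme gene of cholesterol synthesis (1003 bp, 7.75-fold and 4.84-fold), and Mphosph8, a chromatin gene (1005 bp, 5.98-fold and 6.23-fold).

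Most genes had a single member. Tnfaip6 had 3, at its start and 2 beyond its end, and Clic1, Dpep2, Ephx2, H6pd, Tob2 and Ybx1 were among those with 2. None of the 3 at Tnfaip6 overlapped the mark, nor did either at Dpep2, Ephx2, a hydrolase gene of fatty acid epoxides, or Ybx1, which encodes a protein that binds DNA and RNA. At Tob2, an antiproliferative gene, the end locus (12.7-fold and 14.7-fold, no mark) was stronger than the start locus (6.21-fold and 5.27-fold, marked). Both loci of Clic1 were in the mark. The loci of Ephx2 lay 401 to 1509 bp from the mark and those of Ybx1 14719 to 15633 bp from it.

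Members between a pair of genes were arranged in several ways. In 14 cases a member lay within 1 kb of the starts of 2 genes, and 13 of these had the mark, among them Nr4a2. The exception was the locus between Col4a1 and Col4a2 (chr8:11312575-11312950, 8.75-fold and 5.77-fold), which encode the main chains of basement membrane collagen and share their start region. It lay 184137 bp from the nearest H3K27ac peak. In 6 cases a member lay at the ends of 2 genes, and 2 of these had the mark.

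Of the 17 gene lists, with 303 distinct genes, 25 genes had a member. The lists were chosen with earlier results of these data known, so the counts are descriptions. Over all protein-coding genes, 286 of 21631 (1.32%) had a member. Among early transcription factors, AP-1 included, it was 6 of 22 (27.3%), among genes of the ovulatory response to LH 5 of 30 (16.7%) and among genes that respond to glucocorticoids 4 of 30 (13.3%). For loci in all 4 libraries near an end, the same 3 lists had 68.2%, 33.3% and 43.3%, against 20.7% of all genes, and for loci only at 0 h none, against 1.29% of all genes. Of the 27 members at listed genes, 13 (48.1%) had the mark.

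Of the ovulatory genes, Tnfaip6 had the strongest member, at its start, with 16.5-fold and 14.6-fold. Its loci beyond the end had 12.2-fold and just over 10-fold (697 bp away) and 8.98-fold and 7.63-fold (463 bp away), so the start was the highest in both libraries. The mark lay 15218 bp from the start locus, and 1488 and 3054 bp from those beyond the end. Tnfaip6 itself held an H3K27ac peak inside the gene or within 1 kb of it. Snap25, a gene of vesicle fusion that is induced in ovulating follicles, had 15.7-fold and 14.2-fold, 31397 bp from the mark. Rgs2, which shortens G protein signals, had a wide member of 2448 bp over its end with 9.51-fold and 14.4-fold, and a locus in all 4 libraries at its start. Runx2 had 9.77-fold and 9.27-fold at its start, in the mark, and the nearest locus of all 4 libraries was 691649 bp away. Ptgs2 had 7.83-fold and 5.67-fold over its start without the mark, and no H3K27ac peak was called inside this gene or within 1 kb of it. Tnfaip6 at its start, Snap25, Rgs2 and Runx2 were above the medians of the members in both libraries, and Ptgs2 was above the first and below the second. Pla2g4a, named after its values were seen, encodes the phospholipase that frees arachidonic acid for Ptgs2, and was among the weakest with 4.04-fold and 5.67-fold over its start, in the mark.

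**Figure D4:**
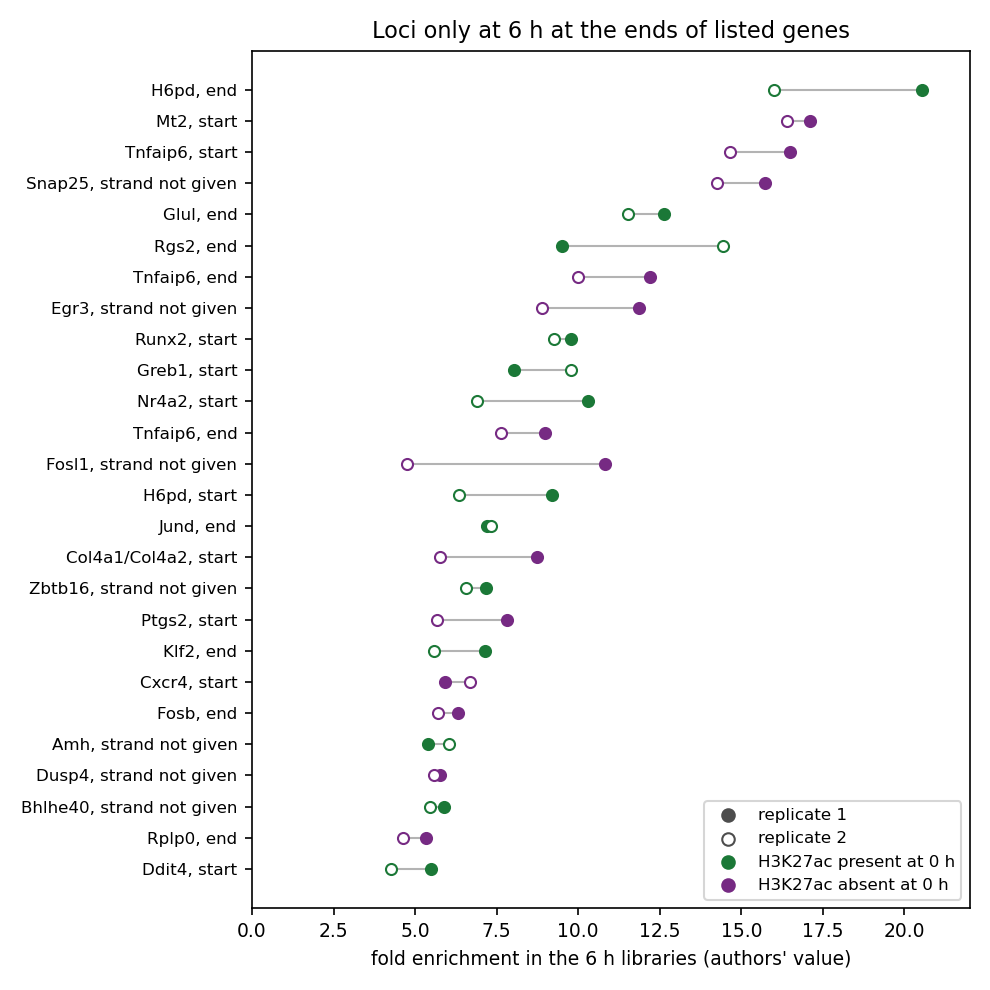
Fold enrichment (horizontal axis) of members at listed genes in the first (filled) and second (open) 6 h library, ordered by their sum, with colour for H3K27ac at 0 h and the nearest end of the named gene in the gene table beside its symbol. H6pd, Mt2, Tnfaip6 and Snap25 lead with 14.2 to 20.5, and Ddit4 is lowest with 5.49 and 4.26.

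Of the 6 members at early transcription factor genes, 3 lay at the end of the gene and 1 at the start, and for 2 the strand is not given. Egr3, a zinc finger factor, had 11.9-fold and 8.88-fold outside the mark, 818 bp from a locus called in all 4 libraries. Fosl1, an AP-1 subunit, had 10.8-fold and 4.75-fold outside it, so the second library gave less than the first by a wide margin. Nr4a2 had 10.3-fold and 6.90-fold at its start in the mark. Jund and Fosb, both AP-1 subunits, and Klf2, a Krueppel-like factor, had loci over or beyond their ends, with 7.19-fold and 7.33-fold, 6.33-fold and 5.69-fold, and 7.13-fold and 5.57-fold. The locus of Jund also lies within 1 kb of the start of its neighbour Iqcn. Each of these 3 genes also had a stronger locus in all 4 libraries near an end. The one of Jund, 152 bp from the member, had 21.7-fold and 23.8-fold at 0 h and 25.2-fold and 14.4-fold at 6 h. Another GR locus at the end of Fosb was called in the second 0 h library and in the first 6 h library. The end of Fosb was thus not free of called GR peaks at 0 h. The members of Jund and Fosb are lost when peaks up to 500 bp apart are joined, and that of Klf2 remains.

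The genes of the glucocorticoid response with a member were Mt2 and Ddit4, described above, Glul and Zbtb16. Glul, glutamine synthetase, had 12.6-fold and 11.5-fold over its end in the mark, and its start held a locus in all 4 libraries with 15-fold and 13.4-fold at 0 h and 14.7-fold and 10.9-fold at 6 h. Its end was thus called only at 6 h and its start at both times. Zbtb16, a zinc finger repressor, had 7.18-fold and 6.56-fold over an end in the mark.

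The remaining lists had 2 genes or fewer with a member. In the FSH response these were Greb1, a coregulator of oestrogen receptor, with 8.04-fold and 9.77-fold 825 bp from its 5′ end in the gene table, and Amh, anti-Müllerian hormone, also a granulosa marker, with 5.40-fold and 6.05-fold. Both had the mark. The summits at Greb1 lay at -1561 and -1527 bp from its start in the promoter table. The start and end of Greb1 also held 4 loci called in the first 0 h library alone, at 4.46-fold to 6.79-fold. Of the clock genes, Bhlhe40, a repressor gene, had 5.89-fold and 5.44-fold beside a locus in all 4 libraries. The matrix list had Col4a1 and Col4a2, through the same locus. Single genes were H6pd for glucocorticoid handling, the chemokine receptor gene Cxcr4 (5.93-fold and 6.68-fold) and the MAP kinase phosphatase gene Dusp4 (5.76-fold and 5.57-fold). Among 15 housekeeping genes it was the ribosomal protein gene Rplp0 (5.33-fold and 4.63-fold). The starts of Cxcr4 and Rplp0 each also held a locus in all 4 libraries. At 0 h it had 6.25-fold and 7.51-fold at Cxcr4, and 11.96-fold and 12.11-fold at Rplp0. Dusp4 had another locus within 1 kb of an end, called in the first 0 h library (7.38-fold) and in both 6 h libraries. These 3 genes thus also carried GR near an end at 0 h. Luteinisation and steroid synthesis (25 genes), the cell cycle (20 genes) and the markers of theca cells, oocytes, leukocytes and endothelial cells had no member. At 1.32% of all genes, a list of 20 to 25 genes would hold fewer than 1 on average, so a count of 0 in such a list is not distinguishable from the background.

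The 79 members outside the mark were at varied distances from it. The median was 8400 bp, 19 lay within 1 kb of an H3K27ac peak and 35 more than 10 kb from one. Of the members covering a gene end, 63 of 86 (73.3%) had the mark, of those 1 to 500 bp away 65 of 98 (66.3%), and of those 501 to 1000 bp away 51 of 74 (68.9%), so the share differed little with distance from the end.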

How the data were processed

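Per the submitters' processing notes, reads were aligned with Bowtie2 2.4.5 to mm10 and peaks called with MACS2 (version and control not given in the sources used here). The authors deposited 1 list per GR library with a score, a fold enrichment (a ratio), a −log10 p-value and a summit per peak. The deposited H3K27ac list holds positions (37453 peaks used). These values rank peaks within a list and carry no depth.

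Loci, classes, distances and overlaps (1 bp or more) were computed with Python 3.11.15 and Fisher's exact tests with scipy 1.17.1, after checks on simulated lists. Gene ends and promoter windows come from RefSeq tables of GRCm38.p6. Intervals cover counting error only. The members, lists and tests were chosen with earlier results of these data known. Named were the 12 members best ranked on average by p-value, listed genes with a member, genes with 2 or more, the 3 weakest, and 2 loci on each side of the 1 kb limit; promoters came from members with both summits in the window. Some items that this rule names are not reported here. Alternatives changed list length, merging, window, gene set, library and overlap rule.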

Additional observations from a re-analysis of the deposited data

How the results depend on the processing

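The number of loci only at 6 h near gene ends moved with the lists. It was 390 to 1310 with 1 library left out, where a rise is built in because a condition is dropped and the highest value came without the second 6 h library. It was 142 with the 9724 strongest peaks of each list and 422 with all genes of the table in place of protein-coding ones. Of the 258 members, 139 remained with equal list lengths and 65 with the stronger 50% of each list. The 12 strongest remained in both, which is built in because they were picked by rank in the same 6 h lists. When peaks up to 500 bp apart were joined, 9 of the 12 remained. The 4 H3K27ac differences kept their direction and passed in all 14 alternatives run, and that between start and end also with starts of the promoter table alone, chosen after seeing the data. With 1 library left out they ranged from -33.0 to -16.4 points against loci in all 4 libraries, -30.6 to -8.21 against loci only at 0 h, 36.0 to 43.5 against loci elsewhere, and 44.3 to 54.9 between start and end. The start share differed by -29.8 to -11.9 points from loci in all 4 libraries, and by -28.6 to -3.05 from loci only at 0 h. The lowest of the latter, without the second 6 h library, missed the threshold (Fisher's exact test, adjusted p = 0.26), and the cause was not tested. No paired analysis was possible because the tests compare sets of loci, not libraries. Read depth is unknown and limits every absence of a peak.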
